A study of Mus musculus with 9 samples.

Results

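Roquin is an RNA-binding protein that brings selected mRNAs to decay. RNA recovered by immunoprecipitation (IP) with Roquin antibodies was compared with RNA of the lysate from which it was taken (the input), over every entry with a gene symbol in the deposited count table. The comparison held 6 of the series' 9 libraries, 3 of Roquin IP and 3 of input. It covered 20467 symbols, of which 6312 had no count and 9567 had enough reads to be tested. All libraries came from RAW264.7, an established mouse macrophage line, after 2 h with lipopolysaccharide (LPS, the bacterial ligand of Toll-like receptor signalling) at 100 ng/ml, so no unstimulated cells enter any group. The Roquin IPs used rabbit polyclonal antibodies on protein A/G beads. The input was lysate RNA isolated ahead of the IP. A further 3 libraries, made with the beads and no antibody (control IP), are given beside the comparison as the background of the beads. With no antibody in that control, RNA held by Roquin and RNA held by any other protein that the antibodies bring down cannot be told apart. The series' design text calls the replicates biological, and all are cultures of a single cell line.

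Roquin-1 and Roquin-2, the products of the paralogs Rc3h1 and Rc3h2, hold mRNAs through short hairpins in the 3' untranslated region (3' UTR) and bring in the CCR4-NOT deadenylase and the decapping enzymes. The hairpin was named the constitutive decay element (CDE) in Tnf mRNA, where it keeps the message short-lived whether or not the cell is stimulated. In macrophages such decay limits how much cytokine is made after a Toll-like receptor signal, and in T cells Roquin restrains the costimulatory receptor ICOS.

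The hairpins are shown first, since the authors' deposited table marks each gene by whether it is predicted to hold a CDE, and Nfkbid, Tnf and Rc3h1, among the mRNAs furthest above the input, are marked so. Each line gives 23 bases of the sense strand of a 3' UTR (GRCm38 genome, GENCODE annotation), 5' to 3', with the 9 bases of the hairpin's upper stem and loop in capitals.
Nfkbid (chr7:30428398-30428420, plus strand): aggtgatTTCTGTGAAatcgagc
Nfkbid (chr7:30428426-30428448, plus strand): tgattgtTTCTGTGAAacactct
Tnf (chr17:35199581-35199603, minus strand): acatgttTTCTGTGAAaacggag
Rc3h1 (chr1:160968035-160968057, plus strand): gtttttgTTCTGTGAAtgaactt
Rc3h1 (chr1:160971656-160971678, plus strand): caataacTTCTGTGAAgttgcct
Rc3h2 (chr2:37373805-37373827, minus strand): aattaacTTCTGTGAAgttgttt
Nfkbiz (chr16:55812610-55812632, minus strand): aagttgtTTCTATGAAacaaacc
Ier3 (chr17:35822870-35822892, plus strand): atgtatgTTCTGTGAAcacgaat
Bmpr1a (chr14:34414160-34414182, minus strand): tggtgctTTCTGTGAAagcctta
Fos (chr12:85477074-85477096, plus strand): aacagttTTCCATGAAaacgttt
Ppp1r10 (chr17:35932143-35932165, plus strand): agttgttTTCTATGAAaacagtg
Icos (chr1:60999482-60999504, plus strand): acaaaatTTCTGTGAAataaaat
The capitals read TTC, a loop of 3 bases and GAA, and the lower-case bases on both sides go on pairing with each other for a further 2 to 6 pairs (counting G with T). Tnf, Ier3 and both Roquin genes carry the loop TGT, Nfkbiz and Ppp1r10 carry TAT, and Fos carries CAT. Nfkbid and Rc3h1 each hold a pair of hairpins, 28 bases apart from start to start in Nfkbid and 3621 bases apart in Rc3h1. In 22 of the 24 genes marked as conserved and called higher, 24 such sites were found (1 of these genes was not examined), with the loop TGT in 18, TAT in 4 and CAT in 2.

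Library totals ran from 3547517 to 12975767 reads in Roquin IP, from 2929537 to 8466096 in control IP and from 1799390 to 2122288 in the input, so a count of 0, which allows up to 3 counts, stood for as much as 1.49 counts per 1000000 (CPM, scaled by TMM factors) in the shallowest library. Macrophage markers were present in all libraries: 44 of 45 were listed and 1 of these, Marco, had no count. Their summed level, per 1000000 reads of the library and without TMM factors, was 1488.1 to 2362.8 in Roquin IP and 2979.9 to 5652.3 in the input. On the TMM scale the list's median log2 fold change over the input was -0.21. Markers of other cell types were at or near 0: 11 of 18 lymphocyte, 8 of 19 fibroblast, epithelial and endothelial and 10 of 16 erythroid and granulocyte markers had no count in any library, and no such list summed to over 12.3 reads per 1000000. Lars2 (leucyl-tRNA synthetase of mitochondria), which held the most reads of any gene summed over the 9 libraries (Tnf held more in Roquin IP 2 and 3), stood at 356329, 246351 and 197950 CPM in Roquin IP and 338115, 264005 and 366018 CPM in the input. These reads made up 32.5% to 41% of each input library and 15% to 23.9% of each Roquin IP library. No mitochondrially encoded RNA is listed among the deposited counts, and whether all these reads came from Lars2 mRNA was not tested. The Lars2 groups overlapped (log2 fold change -0.27 ± 0.39, SE, n = 3 libraries a group, edgeR adjusted p = 0.725). The reference mRNAs Actb (-0.55 ± 0.38, edgeR adjusted p = 0.429) and Gapdh (-0.87 ± 0.35, edgeR adjusted p = 0.149) did not pass the threshold either, although Gapdh was under all inputs in all Roquin IPs and passed it with the replicate block described below (edgeR adjusted p = 0.0117).

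Among the mRNAs furthest above the input by fold were Tigd3 and Fam43a, which had no read in the input, the nuclear NF-kappaB inhibitor gene Nfkbid, Socs1, Id1, Tnf and Rc3h1. Among the furthest below it were Gm20594, Upf3b, Snapc5 and Esf1. In edgeR's quasi-likelihood test 521 genes were higher in Roquin IP (5.45% of the genes tested) and 267 were lower (2.79%) at an adjusted p under 0.05, and these shares are the background for every list below. The 2 sides differed in size. The higher genes had a median of 3.69-fold, 115 of them (1.2% of the genes tested) reached 8-fold and 25 reached 32-fold, while the lower genes had a median of 2.41-fold and 6 reached 4-fold. Tested against a 2-fold difference, 200 genes were higher (2.09%) and 4 lower (0.0418%), and DESeq2 called 712 (7.44%) and 542 (5.67%). All 3 Roquin IP libraries lay above all 3 inputs for 520 of the 521, against 16.5% of all genes, and below them for 264 of the 267, against 14.3%.

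**Figure D1:**
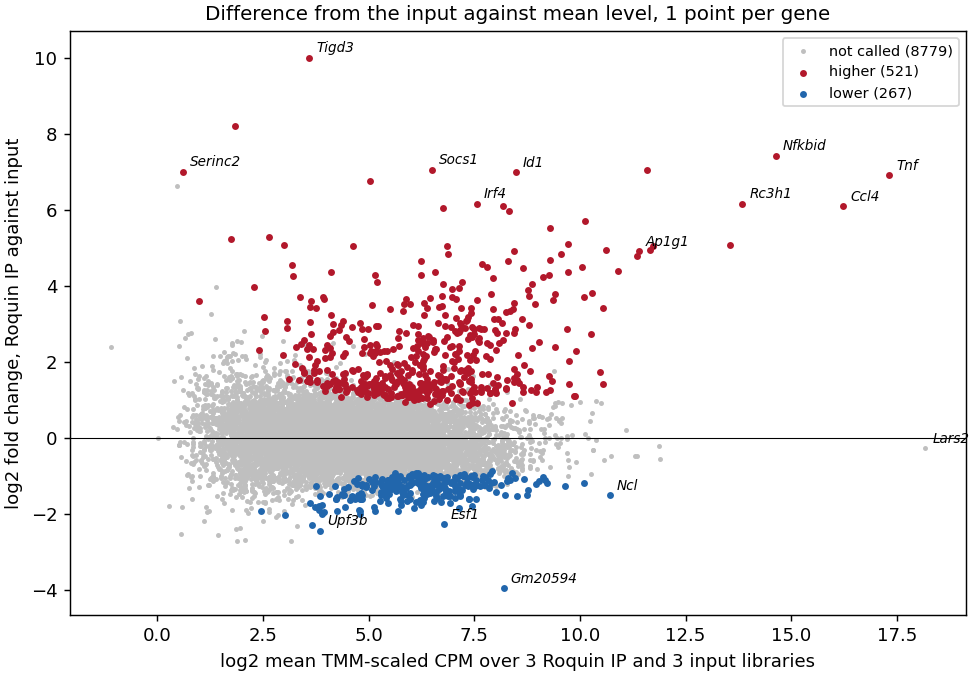
Log2 fold change of Roquin IP over input (vertical axis) against the log2 mean level over the 6 libraries compared (horizontal axis, CPM), 1 point for each of 9567 genes, with higher genes in red and lower genes in blue. The 521 higher genes reach far from 0 at all levels, and the 267 lower genes lie close under the unchanged ones, with the predicted gene Gm20594 apart at -3.96.

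The same-numbered Roquin IP and input libraries deviated together, so a fit with the replicate number as a block is given beside: it called 956 genes higher (9.99%) and 769 lower (8.04%), and these included all 521 and all 267. Without input 3 the counts were 409 (4.17%) and 192 (1.96%). The share of reads held by the 521 genes was 46.7%, 57% and 47.8% in Roquin IP and 3.78%, 3.93% and 4.28% in the input, and a change in so large a share bears on the scaling between libraries. TMM factors put the median gene at -0.01 on the log2 scale. Scaling by library size alone put it at -0.76 and turned the calls to 259 higher (2.71%) and 2668 lower (27.9%). With it every higher gene in the paragraphs below kept its direction, while Arpc1a, Atp6v0b, Ccdc50, Cflar, Cnot2, Cnot7, Dcp2, Dkc1, E2f1, Eif4a1, Eif4h, Itch, Lsm4, Mapk8, Nop10, Slc38a2, Socs4, Srsf9, Tnfaip3, Traf3 and Zc3h12a no longer passed the threshold. A correction for the GC content of transcripts, given further on, is named beside a list's counts under other settings where it moved one by over 1.5 times. Values below are on the TMM scale and so relative to the median gene, and each gene named as higher or lower passed the threshold in every fit that left out 1 Roquin IP or input library unless stated. That held for 254 of the 521 genes and for 25 of the 267. Medians of lists are read beside those of all genes tested, -0.01 over the input and -0.12 over control IP, and with library size alone every such median moves down with that of all genes. The counting is not stated to use strand, so reads of Ap1g1, Arpc1a, Atp6v0b, Bmpr1a, Cast, Ccdc77, Cnot2, Cnot7, Crnkl1, D5Ertd579e, Eif2ak2, Eif2ak3, Eif4a1, Epc1, Ewsr1, Hipk1, Ikbke, Ipo11, Itgb3bp, Lcp1, Man1a, Map4k3, Mgat5, Ncl, Parp14, Pole2, Ppp1r10, Ptpn6, Rpl22l1, Sacm1l, Sec24c, Tax1bp1, Tln1, Tob2, Tpr, Ube2w and Usp37 cannot be told apart from those of a gene annotated over their exons.

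The class that the authors' deposited table gives as a conserved CDE in the 3' UTR stood apart from the other classes in its count. Of its 55 genes, 37 were tested and 24 were higher (64.9%, median log2 fold change 2.77 over the 37), with 24 again without input 3 and 23 with library size alone. CDEs in the 3' UTR that the table marks as not conserved had 4 of 38 genes higher, CDEs in the open reading frame 9 of 55 (2 and 6 without input 3), and genes with no CDE 484 of 9437 (5.13%). The sources used here do not say how the authors arrived at the class. The 13 conserved genes that did not pass ran from -0.24 to 2.16, and 10 of them lay above 0. All Roquin IPs lay above all inputs in 27 of the 37, so a marked hairpin and a call did not always go together. Ppp1r10, a nuclear subunit of protein phosphatase 1, was 13.9-fold higher (edgeR adjusted p = 5.83e-05, log2 fold change 3.79, and 4.44 without input 3). Icos, the costimulatory receptor gene of T cells, was at 22.6, 15 and 19.9 CPM in Roquin IP against 0.407, 1.98 and 1.98 CPM in the input (3.71 ± 0.72, edgeR adjusted p = 0.00562), without overlap. The letters searched in 3' UTRs were TTCCACGAA, TTCCATGAA, TTCCGCGAA, TTCCGTGAA, TTCTACGAA, TTCTATGAA, TTCTGCGAA and TTCTGTGAA, on the sense strand. One or more stood in the 3' UTR of 6.01% of all genes tested, 13.5% of the 521, 17.4% of those at 8-fold or more, and 5.26% of the 267. The higher genes had longer 3' UTRs, with a median of 1757 bases against 1200 for all genes, and within 3' UTRs of 1000 to 3000 bases the shares were 13.8% of the higher genes and 6.39% of all. At 8-fold or more 20 of 115 genes held such a site, among them conserved-class genes such as Nfkbid, Tnf and Rc3h1. Genes of that class are counted in the shares of higher genes. Shares without the class were not computed, so these are not a result apart from it.

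Both Roquin mRNAs were themselves far above the input. Rc3h1 stood at 34887, 27570.1 and 24679.7 CPM in Roquin IP, 320.5, 314 and 578 CPM in the input and 374, 283 and 226 CPM in control IP. All Roquin IP values lay at least 42.7 times above the highest of the other 6 libraries (6.17 ± 0.42 on the log2 scale over the input, edgeR adjusted p = 1.4e-06). Rc3h2, the paralog, stood at 5762, 3661 and 5688 CPM against 199, 157 and 193 CPM, again without overlap (4.78 ± 0.33, edgeR adjusted p = 1.4e-06). Of the RNA-binding proteins that direct mRNAs to decay, a list of 27 genes tested, Rc3h1, Rc3h2 and Zc3h12a (Regnase-1, an endonuclease that acts on many of the same mRNAs) were the 3 higher, and 0 were lower (1 at an unadjusted p under 0.05 and 1 with DESeq2). Zc3h12a was 2.34-fold higher (edgeR adjusted p = 0.0245), and it lost the call in 4 of the 6 fits that left out a library, where its adjusted p reached 0.138.

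The 2 atypical nuclear IκB proteins that share this hairpin followed the Roquin genes. Nfkbid encodes IκBNS and Nfkbiz encodes IκBζ, nuclear partners of NF-kappaB that bear on which later LPS genes are transcribed. Nfkbid stood at 40676, 48122 and 62949.9 CPM in Roquin IP and 129, 31.2 and 719.6 CPM in the input. Input 3 was the highest of all 6 control IP and input libraries, and without it the log2 fold change went from 7.43 to 9.31. Nfkbiz, with inputs of 764, 643 and 671 CPM that lay close together, reached 31660.2, 21390.4 and 17243 CPM in Roquin IP (5.08 ± 0.37, edgeR adjusted p = 1.4e-06). In the NF-kappaB list 2 of 17 tested were higher and 1 lower. The NF-kappaB subunits and the classical inhibitors did not pass, and Ikbke, the kinase IKKε, was lower, at 18, 24.8 and 20.6 CPM against 69.6, 60.5 and 60.5 CPM (-1.58 ± 0.30, edgeR adjusted p = 0.00454). Among ubiquitin regulators of the pathway Traf3 (1.46), Tnfaip3 (A20, 1.20) and Itch (1.05) were higher and Tax1bp1, an A20 adaptor, was lower (-1.39), with Tax1bp1 the only one of the 4 whose groups overlapped. Each lost its call in 2 or more of the fits that left out a library, with adjusted p-values in edgeR of up to 0.116, 0.155, 0.206 and 0.202.

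Few cytokine mRNAs passed the threshold. Of cytokine and chemokine genes, 3 of 27 tested were higher (11.1%) and 1 lower: Tnf, the chemokine gene Ccl4 and Csf3, which encodes the granulocyte growth factor G-CSF, were the 3 higher, and Il1b was lower. These counts were 7 and 4 with the replicate block, 3 and 0 without input 3, and 3 and 5 with library size alone. Of the 27, 18 lay above 0 (66.7%, against 49.5% of all genes). Their median was 0.35 over the input and 0.305 over control IP, and -0.39 over the input with library size alone. Tnf levels were 307641, 446945 and 220176 CPM in Roquin IP, 1841, 1635 and 4601 CPM in the input and 2339, 1762 and 1043 CPM in control IP (6.92 ± 0.61 over the input, edgeR adjusted p = 5.83e-06). Ccl4, for which the table marks no CDE, was at 106334, 249284 and 101112 CPM against 968, 2579 and 3077 CPM in the input (6.11 ± 0.61, edgeR adjusted p = 1.46e-05). In both the groups were apart, while the Roquin IP libraries differed among themselves by up to 2.46-fold. Csf3 was at 528, 1367 and 1764 CPM against 8.14, 23.3 and 48.6 CPM (5.53 ± 0.62, edgeR adjusted p = 4.36e-05). Input 3 was the highest input for all 3, and without it the log2 fold changes were 7.56 for Tnf, 6.44 for Ccl4 and 6.28 for Csf3. Il1b, the pyrogen released through the inflammasome, went the other way: its 69.6, 192 and 204 CPM lay under the 340.4, 510.1 and 471 CPM of the input (-1.50 ± 0.38, edgeR adjusted p = 0.0254). Il1b lost the call in 3 of the 6 fits that left out a library, with an adjusted p of up to 0.0947.

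**Figure D2:**
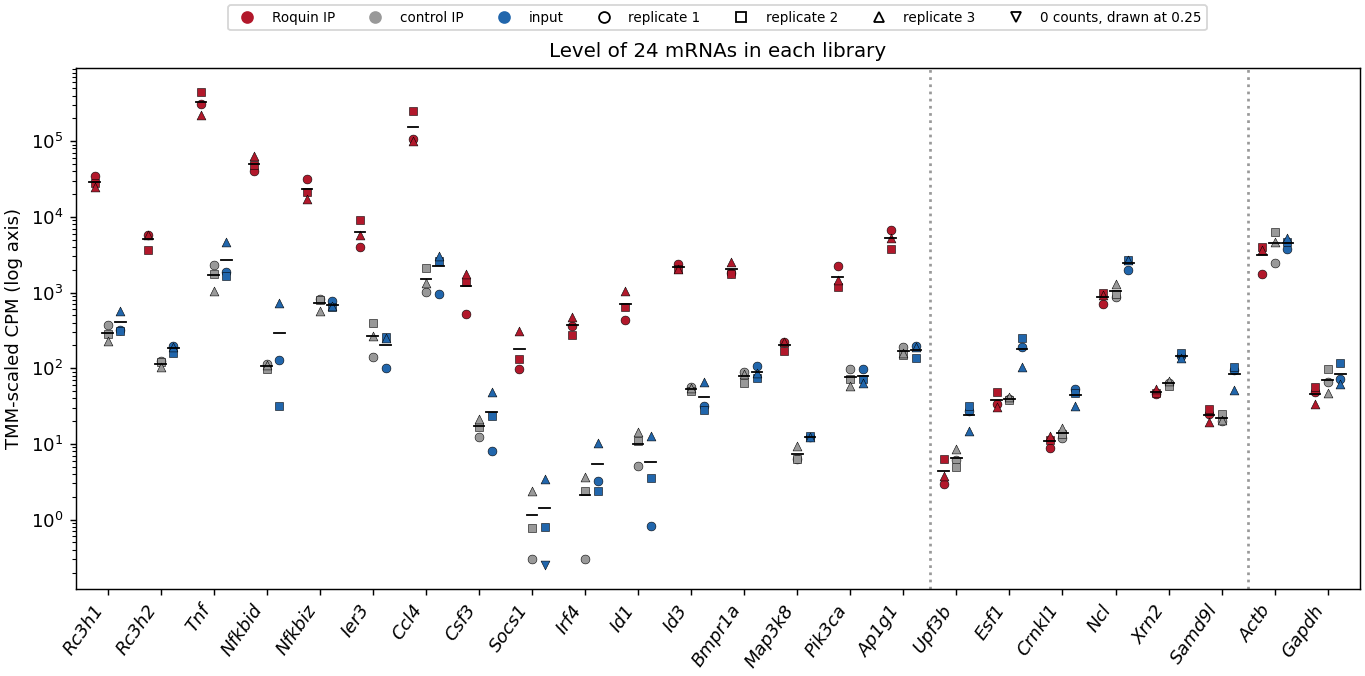
Level in CPM (log axis) of 24 mRNAs in each of the 9 libraries, coloured by group, with a mark shape for each replicate number and a bar at the group mean, for higher mRNAs, lower mRNAs and 2 references from left to right. For the 16 higher mRNAs the 3 Roquin IP marks lie above all input marks and control IP marks, and for the 6 lower mRNAs control IP and Roquin IP lie together under the input.

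Socs1, Socs4, Socs7 and Pias3, which encode inhibitors of cytokine signalling, were among the higher genes. SOCS proteins switch off JAK-STAT signalling, and in the list of cytokine receptors and their JAK-STAT and SOCS partners 4 of 39 tested were higher and 3 lower. Socs1 was almost absent from the input, with 0, 0.791 and 3.47 CPM against 96.9, 131 and 308 CPM in Roquin IP, and all Roquin IP libraries were above all inputs (7.07 ± 0.79, edgeR adjusted p = 4.47e-05). Its fold rests on these low inputs: it was 8.73 without input 3, 6.46 without input 1 and 6.40 without Roquin IP 3. Socs7 was 9.87-fold higher (edgeR adjusted p = 3.35e-05) and Socs4 3.22-fold (edgeR adjusted p = 0.0226, lost in 3 of the 6 fits that left out a library, up to 0.127). Pias3, an inhibitor of STAT3, stood at 346, 149.8 and 139.9 CPM against 2.04, 3.16 and 4.46 CPM (6.05 ± 0.50, edgeR adjusted p = 3.28e-06), the groups far apart. The kinase gene Jak1 (-1.05) and the phosphatase genes Ptpn2 (-1.49) and Ptpn6 (-1.03) were lower, with edgeR adjusted p-values of 0.0215, 0.0109 and 0.0249, and each lost the call when some single libraries were left out, up to 0.119, 0.0687 and 0.12.

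Immediate early transcripts, which appear within minutes of a stimulus and decay fast, had the highest share of higher genes among the 52 lists with 20 or more genes tested. Of the immediate early genes, 10 of 36 tested were higher and 0 lower (0 at an unadjusted p under 0.05 and 0 with DESeq2). These counts were 15 and 0 with the replicate block, 8 and 0 without input 3, and 6 and 5 with library size alone. Over the list the median was 0.54 over the input and -0.16 over control IP (-0.19 over the input with library size alone). The list's median coding GC content was 60.12% against 52.4% for all genes, a feature that moves with the level over the input as given further on. With the GC correction 7 members were higher and 0 lower, and the median over the input was 0.39. The part of GC content for this list was not tested further. Ier3, a survival factor of the NF-kappaB response, was at 4035, 8994 and 5831 CPM against 102, 257 and 252 CPM (4.95 ± 0.51, edgeR adjusted p = 2.22e-05). Fos was nearly at the floor in the input, at 0.407, 2.37 and 1.98 CPM, and at 24.3, 35.5 and 38.9 CPM in Roquin IP (4.37 ± 0.79, edgeR adjusted p = 0.00335). Klf10, a TGF-beta-inducible repressor, was at 275, 79.3 and 332 CPM against 6.11, 5.14 and 12.9 CPM (4.85 ± 0.56, edgeR adjusted p = 6.08e-05). Ier5 was 7.35-fold higher (edgeR adjusted p = 1.25e-05). In each of the 4 the groups did not overlap. Irf4, a transcription factor of the interferon regulatory family, was at 365, 273 and 478 CPM against 3.26, 2.37 and 10.4 CPM (6.16 ± 0.60, edgeR adjusted p = 1.33e-05) and at 7.05 without input 3. Among interferon regulatory factors, 1 of 11 tested were higher and 0 lower (0 at an unadjusted p under 0.05 and 0 with DESeq2).

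Some kinases that carry the LPS signal onward were also above the input. Of the MAP kinases, 5 of 30 tested were higher and 0 lower (1 at an unadjusted p under 0.05 and 1 with DESeq2), which left 25 that passed in neither direction. These counts were 8 and 1 with the replicate block, 4 and 0 without input 3, and 3 and 5 with library size alone. Their median was 0.56 over the input and -0.20 over control IP, and -0.19 over the input with library size alone. Map3k8, or TPL2, links the IKK complex to ERK in macrophages. Its input values of 12.2, 12.7 and 12.4 CPM hardly varied, and its Roquin IP values were 225, 168 and 222 CPM (4.04 ± 0.31, edgeR adjusted p = 1.71e-06). Map3k2 (5.62-fold, edgeR adjusted p = 0.000308), Map4k3 (4.88-fold, edgeR adjusted p = 0.00218) and the JNK gene Mapk8 (2.92-fold, edgeR adjusted p = 0.00579) followed. Of the phosphatases and RAS regulators that end the signal, 3 of 21 tested were higher and 0 lower (0 at an unadjusted p under 0.05 and 0 with DESeq2). Rasa2, a RAS GTPase-activating protein, was 4.47-fold higher and Spred1, a RAF inhibitor, 3.31-fold (edgeR adjusted p = 0.000407 and 0.00707). Dusp6, the ERK phosphatase, was 6.4-fold higher (edgeR adjusted p = 0.0247) on low inputs of 0.407, 5.54 and 7.93 CPM, and lost the call in 3 of the 6 fits that left out a library (up to 0.0912), with a log2 fold change of 3.29 without input 3 against 2.68 with it. Trib1, a pseudokinase that sends C/EBP proteins to degradation in myeloid cells, was 12.7-fold higher on inputs of 0.407, 1.98 and 4.46 CPM (edgeR adjusted p = 0.00434) and at 4.54 on the log2 scale without input 3, against 3.66 with it.

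Id genes were among the furthest above the input. Id proteins pair with basic helix-loop-helix factors and keep them off DNA, and BMP receptors induce them. Of Id, BMP and TGF-beta genes, 5 of 22 tested were higher and 0 lower (0 at an unadjusted p under 0.05 and 0 with DESeq2). These counts were 8 and 0 with the replicate block, 5 and 0 without input 3, and 4 and 0 with library size alone. The list's median was 0.82 over the input and 0.29 over control IP. Id1 was at 429, 639 and 1055 CPM in Roquin IP against 0.814, 3.56 and 12.9 CPM in the input (7.00 ± 0.71, edgeR adjusted p = 1.77e-05). Id3 was at 2394, 2059.9 and 2048 CPM against 31.8, 27.7 and 65 CPM (5.71 ± 0.39, edgeR adjusted p = 1.4e-06), and Id2 at 282, 219 and 94.7 CPM against 20.8, 10.7 and 13.4 CPM (3.73 ± 0.55, edgeR adjusted p = 0.00055). None of the 3 is marked with a CDE, and in all 3 the lowest Roquin IP value lay above the highest input. Without input 3 Id1 moved from 7.00 to 8.32. Bmpr1a, a type I BMP receptor with the hairpin printed above, was at 1794, 1754 and 2533 CPM against 108, 74.3 and 86.3 CPM (4.50 ± 0.32, edgeR adjusted p = 1.4e-06). Tcf7l2, the TCF4 transcription factor of Wnt signalling, was at 711, 479 and 516 CPM against 6.92, 5.54 and 12.4 CPM (6.12 ± 0.44, edgeR adjusted p = 1.4e-06), while in the Wnt list 2 of 26 tested were higher and 0 lower (0 at an unadjusted p under 0.05 and 0 with DESeq2).

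Transcripts of the decay machinery that Roquin recruits were among the higher genes, by smaller folds. Of the deadenylase genes, 5 of 24 tested were higher and 0 lower (1 at an unadjusted p under 0.05 and 0 with DESeq2). These counts were 6 and 0 with the replicate block, 3 and 0 without input 3, and 1 and 9 with library size alone. The list's median was 0.07 over the input and 0.17 over control IP, and -0.68 over the input with library size alone. Cnot7, a catalytic subunit of CCR4-NOT, was at 276, 195 and 262 CPM against 102, 80.7 and 76.9 CPM (1.50 ± 0.26, edgeR adjusted p = 0.00251). Cnot2, a scaffold subunit, was 2.57-fold higher (edgeR adjusted p = 0.00981) and missed the threshold without Roquin IP 3 (0.0537). Tob2, which tethers CCR4-NOT to mRNAs, was 4.06-fold higher (edgeR adjusted p = 0.00987) and missed it without input 2 (0.0676), with a log2 value of 2.75 without input 3 against 2.02 with it. Decapping and exonuclease genes split: of 42 tested, 4 were higher and 4 lower. Dcp2, the decapping enzyme, was 2.77-fold higher (edgeR adjusted p = 0.0105, lost in 2 of the 6 fits that left out a library, up to 0.0637), and the LSm ring gene Lsm2 7.25-fold (edgeR adjusted p = 0.00038). Among the lower ones was Xrn2, the nuclear exonuclease that ends transcription, at 45.7, 47.7 and 53 CPM against 147, 159 and 135 CPM (-1.59 ± 0.25, edgeR adjusted p = 0.000944). Eif2c1, which encodes Argonaute 1, was 4.84-fold higher (edgeR adjusted p = 0.0027), and Upf3b, a nonsense-mediated decay factor, was among the lowest of all genes by fold, at 2.94, 6.32 and 3.77 CPM against 26.9, 31.2 and 14.9 CPM (-2.44 ± 0.46, edgeR adjusted p = 0.00461).

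Phosphoinositide enzymes held further higher genes, and coat and adaptor genes of the secretory pathway lay on both sides. Of the phosphoinositide enzymes, 9 of 56 tested were higher and 0 lower (2 at an unadjusted p under 0.05 and 0 with DESeq2). These counts were 10 and 1 with the replicate block, 6 and 0 without input 3, and 4 and 12 with library size alone. Their median was 0.22 over the input and -0.16 over control IP, and -0.53 over the input with library size alone. Pik3ca, the p110-alpha catalytic subunit of PI 3-kinase, was at 2238, 1170 and 1450.1 CPM against 98.5, 72.8 and 64.5 CPM (4.36 ± 0.36, edgeR adjusted p = 3.28e-06). Pik3cb, its p110-beta relative, was 8.47-fold higher, the phosphatase gene Sacm1l 8.78-fold and the kinase gene Pip5k1a 5.95-fold (edgeR adjusted p = 1.65e-05, 7e-06 and 3.4e-05). In the list of vesicle coats and adaptors 6 of 72 tested were higher and 5 lower, with a median of -0.26 over the input and -0.28 over control IP and 45 of the 72 under 0. These counts were 7 and 13 with the replicate block, 6 and 5 without input 3, and 5 and 40 with library size alone, and 6 and 3 with the GC correction. Ap1g1 and Ap1s3, subunits of the AP-1 adaptor that sorts cargo between the Golgi and endosomes, were both higher: Ap1g1 was at 6659, 3767 and 5248 CPM against 194, 138 and 189.9 CPM (4.91 ± 0.35, edgeR adjusted p = 1.4e-06) and Ap1s3 was 11.4-fold higher (edgeR adjusted p = 6.99e-05). Sec24c, a cargo receptor of the COPII coat, was 13.9-fold higher (edgeR adjusted p = 6.45e-06), and Vps4b, the ESCRT ATPase, 4.43-fold (edgeR adjusted p = 9.9e-05). Other coat genes in the same list went down, among them Cltc, the clathrin heavy chain (-1.21), and Copb2 of the COPI coat (-1.24), both lost in some fits that left out a library (edgeR adjusted p = 0.012 and 0.00863, up to 0.0579 and 0.0579).

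In the list of Golgi glycosylation 6 of 40 tested were higher and 0 lower (0 at an unadjusted p under 0.05 and 0 with DESeq2). These counts were 12 and 0 with the replicate block, 6 and 0 without input 3, and 5 and 3 with library size alone. Median values were 0.71 over the input and 0.37 over control IP, and -0.02 over the input with library size alone. The glycosyltransferase gene Mgat5, which builds branched N-glycans, was at 102, 176 and 152 CPM against 10.6, 5.93 and 5.46 CPM (4.28 ± 0.62, edgeR adjusted p = 0.000521). Ndst2, which sulphates heparan, was 15-fold higher and B4galt5, a lactosylceramide synthase, 10.5-fold (edgeR adjusted p = 1.46e-05 and 7e-06). Man1a, a mannosidase that trims N-glycans, was 7.88-fold higher (edgeR adjusted p = 0.00298). Of the solute carriers, 16 of 154 tested were higher and 1 lower. These counts were 33 and 2 with the replicate block, 12 and 0 without input 3, and 9 and 9 with library size alone, and 16 and 0 with the GC correction. Of the 154, 127 had a fold change above 0 against 49.5% of all genes, and the median was 0.53 over the input and 0.20 over control IP, turning to -0.22 over the input with library size alone. Slc39a14 (ZIP14), an LPS-induced importer of zinc and iron, was at 965, 1577 and 2389 CPM against 61.1, 24.9 and 58 CPM (5.10 ± 0.57, edgeR adjusted p = 4.47e-05), and Slc30a5 (ZnT5), which loads zinc into the secretory pathway, at 752, 1034 and 1723 CPM against 62.7, 49.4 and 67.5 CPM (4.29 ± 0.41, edgeR adjusted p = 1.13e-05). Slc35d1, a nucleotide sugar transporter, was 12.7-fold higher (edgeR adjusted p = 2.68e-05). Slc25a14, a mitochondrial carrier with a marked hairpin, was 23.5-fold higher on inputs of 0, 1.19 and 0.992 CPM (edgeR adjusted p = 0.0123), and missed the threshold without input 2 (0.0525, log2 fold change 5.19). Its log2 fold change was 3.96 without input 1.

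**Figure D3:**
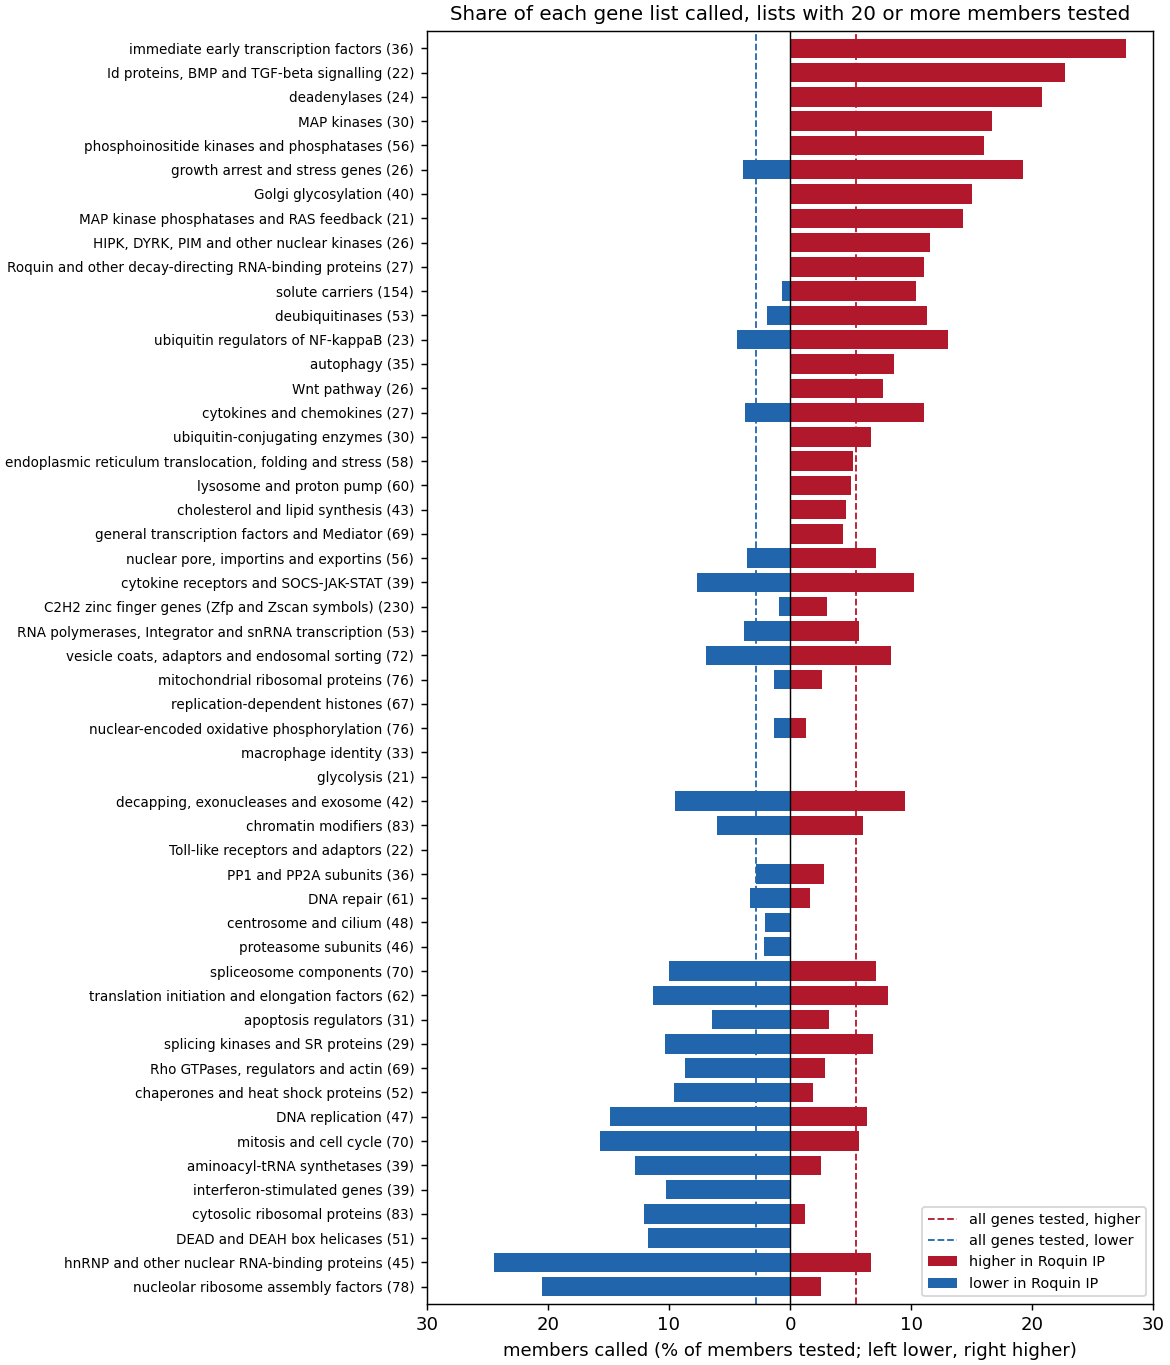
Share of each gene list called higher (red, to the right) or lower (blue, to the left), in percent of the members tested, for the 52 lists with 20 or more members tested, with the number tested in brackets and the shares over all genes as dashed lines. Lists are ordered by the difference of both shares: immediate early factors and Golgi genes lie on the red side, and nucleolar, nuclear RNA-binding and helicase genes on the blue side.

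Single higher genes had roles in protein turnover, nuclear transport and cell division, in lists of which most members were not called. Of the deubiquitinase genes, 6 of 53 tested were higher and 1 lower (11.3% higher, and a median of -0.09 over the input and -0.06 over control IP). Usp53 was at 268, 232 and 299.6 CPM against 21.6, 12.7 and 17.4 CPM (3.96 ± 0.37, edgeR adjusted p = 9.95e-06), and Usp42 and Usp37 were 5.39-fold and 4.51-fold higher (edgeR adjusted p = 0.00108 and 0.000558). Vhl, the substrate receptor that sends hypoxia-inducible factor to degradation, was at 366, 191 and 192 CPM against 23.6, 22.9 and 12.9 CPM (3.64 ± 0.38, edgeR adjusted p = 2.45e-05). The E2 enzyme genes Ube2q2 (7.2-fold) and Ube2w (4.83-fold) were the 2 higher of 30 tested (6.67%), with edgeR adjusted p-values of 1.59e-05 and 0.000374. Of the genes of nuclear pores, importins and exportins, 4 of 56 tested were higher and 2 lower, and the share of higher ones, 7.14%, was close to that of all genes. Ipo11 was 8.75-fold and Ipo7 4.04-fold higher, while Cse1l, which returns importin alpha to the cytoplasm, was 2.55-fold lower (edgeR adjusted p = 1.73e-05, 0.000943 and 0.00586). Hipk1 and Hipk2, nuclear kinases that act on p53 and corepressors, were 6.66-fold and 4.12-fold higher (edgeR adjusted p = 0.00019 and 0.00164). Some cell-cycle transcripts were on this side, 5.71% of their list. Cenpf, a kinetochore protein, was at 2129.9, 1161 and 1068 CPM against 209.7, 239.6 and 143 CPM (2.88 ± 0.38, edgeR adjusted p = 0.000201), and its neighbour at the kinetochore Nuf2 was 6.84-fold higher (edgeR adjusted p = 5.63e-05). Pole2, a subunit of DNA polymerase epsilon marked with a CDE in its reading frame, was 10.5-fold higher (edgeR adjusted p = 4.17e-05).

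Some higher genes stood out in their own family. Of 83 genes for cytosolic ribosomal proteins, Rpl22l1, a ribosomal protein paralog, was the 1 higher, at 323, 1255 and 434 CPM against 17.5, 33.6 and 14.9 CPM (4.92 ± 0.53, edgeR adjusted p = 3.14e-05), and at 4.10 without Roquin IP 2, its highest library. Aars2, the mitochondrial alanyl-tRNA synthetase, was the 1 higher of 39 aminoacyl-tRNA synthetases (6.91-fold, edgeR adjusted p = 0.000825). Dnajb1, an HSP70 cochaperone, was the 1 higher of 52 chaperones (10.7-fold, edgeR adjusted p = 1.26e-05). Zfp408, a zinc finger protein, was at 771, 593 and 534 CPM against 10.2, 6.33 and 13.9 CPM (5.97 ± 0.41, edgeR adjusted p = 1.4e-06), and of genes with Zfp and Zscan symbols 7 of 230 tested were higher and 2 lower. D5Ertd579e, an uncharacterised gene marked with a CDE in its reading frame, was at 6782, 6092 and 5552 CPM against 35, 34.8 and 69.9 CPM (7.05 ± 0.53, edgeR adjusted p = 1.45e-06). For 3 genes the fold is a lower bound, since the inputs held no read. Against 3 counts over the input group, Tigd3 (Roquin IP levels of 18.9, 19.2 and 34.5 CPM) was at least 62.6-fold higher, Fam43a (10.9, 6.57 and 3.87 CPM) at least 13.3-fold and Serinc2 (2.94, 3.92 and 2.23 CPM) at least 6.9-fold. Tigd3 missed the threshold without input 2 (0.0553), Serinc2 in 3 of the 6 fits that left out a library (0.0575 at most), and Fam43a was not called by DESeq2.

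A level above the input was not always a level above the beads. Both comparisons share the Roquin IP libraries, so their values are given side by side. Of the 521 genes, 308 were also called higher than control IP, and 157 (30.1%, against 91.4% of all genes) differed from it by less than 2-fold. Among the genes named here as higher than the input, Arpc1a, Arrdc3, Atp6v0b, E2f1, Eif4ebp2, Eif4h, Lsm4, Serinc2, Slc25a14, Srsf9, Tigd3, Tnfaip3, Tob2, Traf3, Trib1 and Zc3h12a did not pass the threshold over control IP. Over the 521 genes the median log2 fold change was 1.88 over the input and 1.71 over control IP, and across all genes 360 were higher than in control IP (3.76%; 528, or 5.52%, with the replicate block). Tnf was at 7.57, Nfkbid at 8.88, Rc3h1 at 6.63 and Map3k8 at 4.76 over control IP, and at 6.92, 7.43, 6.17 and 4.04 over the input, with input 3 bearing on Tnf and Nfkbid as given above. Clk1, a kinase of splicing factors, was 2.65 over the input but 5.00 over control IP, since it was at 297, 355 and 248 CPM in Roquin IP, 31.8, 79.9 and 30.8 CPM in the input and 4.57, 12.9 and 9.97 CPM with the beads (edgeR adjusted p = 0.00109 and 9.07e-06), and 3.26 over the input without input 2. Other higher genes were as high with the beads alone. Lsm4, an LSm ring protein, was at 132, 63.2 and 108 CPM in Roquin IP, 161, 105 and 196 CPM in control IP and 29.3, 28.9 and 32.2 CPM in the input, and the proton pump subunit Atp6v0b at 101, 115 and 154, 109, 148 and 228 and 42.8, 39.5 and 35.2 CPM. Their log2 fold changes were 1.74 and 1.66 over the input against -0.62 and -0.39 over control IP (edgeR adjusted p = 0.00537 and 0.00525, then 0.579 and 0.737). Serinc2 (-0.22), the splicing factor gene Srsf9 (-0.23), Arpc1a of the actin nucleator (-0.17) and E2f1, the S-phase transcription factor (-0.60), were likewise near or under control IP. Of these 4 Serinc2, Srsf9 and E2f1 missed the threshold over the input in 3, 2 and 5 of the fits that left out a library (up to 0.0575, 0.0692 and 0.134). With the beads alone 78 genes were above the input (0.815%) and 29 below (0.303%).

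Of the lists examined, that of nucleolar ribosome assembly factors had the most members called lower, though the hnRNP list below had the larger share (24.4% against 20.5%). Of the nucleolar factors, 2 of 78 tested were higher and 16 lower. These counts were 2 and 36 with the replicate block, 1 and 6 without input 3, and 0 and 49 with library size alone, and 2 and 9 with the GC correction. The list's median was -0.73 over the input and -0.25 over control IP, and 65 of the 78 lay under 0 against 50.5% of all genes. Esf1, a pre-rRNA processing factor, was at 33.6, 49 and 30.3 CPM against 191, 252 and 103 CPM (-2.27 ± 0.34, edgeR adjusted p = 0.000698). Ncl (nucleolin), among the most abundant lower mRNAs, was at 704, 971 and 934 CPM against 1996, 2724 and 2701 CPM (-1.51 ± 0.29, edgeR adjusted p = 0.00527), and the helicase gene Ddx10 at 27.3, 32.1 and 36.1 CPM against 88, 93.3 and 89.8 CPM (-1.50 ± 0.29, edgeR adjusted p = 0.0055). In each the Roquin IP libraries lay under all inputs. Control IP was as low: 38.7, 38.6 and 41.9 CPM for Esf1, 876, 945 and 1309 CPM for Ncl and 53, 29.2 and 42.7 CPM for Ddx10, so log2 fold changes over control IP were -0.08, -0.26 and -0.38. The 2 higher members, Dkc1 and Nop10, both belong to the H/ACA particle that modifies rRNA and holds telomerase. Dkc1 was 2.55-fold and Nop10 2.29-fold higher (edgeR adjusted p = 0.0281 and 0.0129), and they lost the call in 5 and 2 of the 6 fits that left out a library (up to 0.159 and 0.0658).

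Some genes of pre-mRNA packaging and splicing were lower as well. Of hnRNP and related genes, 3 of 45 tested were higher and 11 lower. These counts were 3 and 19 with the replicate block, 2 and 4 without input 3, and 0 and 34 with library size alone, and 3 and 4 with the GC correction. Hnrnph2 was at 33.6, 37.5 and 37.4 CPM against 139, 100.4 and 101 CPM (-1.65 ± 0.28, edgeR adjusted p = 0.00193), and Ewsr1, the EWS protein, at 53.7, 50.4 and 67.9 CPM against 152, 122 and 167 CPM (-1.35 ± 0.26, edgeR adjusted p = 0.00543). Crnkl1, a component of the catalytic spliceosome, was at 8.81, 11.2 and 12.8 CPM against 53.8, 47.1 and 31.7 CPM (3.98-fold lower, edgeR adjusted p = 0.00181), and of the spliceosome genes 5 of 70 tested were higher and 7 lower. These counts were 5 and 18 with the replicate block, 2 and 3 without input 3, and 1 and 48 with library size alone, and 2 and 6 with the GC correction. Bclaf1, a nuclear factor found with splicing proteins, was 2.92-fold lower, and Tpr, the basket of the nuclear pore, 3.05-fold (edgeR adjusted p = 0.00829 and 0.00208). Of the DEAD and DEAH box helicases, 0 of 51 tested were higher (1 at an unadjusted p under 0.05 and 0 with DESeq2) and 6 lower. These counts were 1 and 15 with the replicate block, 0 and 5 without input 3, and 0 and 28 with library size alone. Hmgn5, a nucleosome-binding protein, was 3.83-fold lower and Snapc5, a factor of snRNA transcription, 4.87-fold (edgeR adjusted p = 0.00324 and 0.00801). The median was -0.62 over the input and -0.23 over control IP for the hnRNP list and -0.61 over the input and -0.28 over control IP for the spliceosome.

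Transcripts of chromosome segregation and replication were on both sides, with more below the input. Of the mitosis and cell cycle genes, 4 of 70 tested were higher and 11 lower. These counts were 8 and 20 with the replicate block, 5 and 8 without input 3, and 3 and 36 with library size alone, and 3 and 5 with the GC correction. Median values were -0.36 over the input and -0.25 over control IP. Hmmr, a spindle protein, was at 26.8, 31.1 and 30.6 CPM against 104, 119 and 94.7 CPM (-1.84 ± 0.38, edgeR adjusted p = 0.00816), and Dlgap5, which bundles spindle microtubules, at 9.23, 9.86 and 9.87 CPM against 37.9, 36 and 28.3 CPM (-1.81 ± 0.31, edgeR adjusted p = 0.00239). The proliferation marker Mki67 was at 264, 256 and 148 CPM against 817, 627 and 454 CPM (-1.51 ± 0.32, edgeR adjusted p = 0.00987) and missed the threshold without Roquin IP 3 (0.0583). Pola1, the catalytic subunit of DNA polymerase alpha, was 3.07-fold lower (edgeR adjusted p = 0.00603) among 47 replication genes with 7 lower and 3 higher (2 and 2 with the GC correction). In families picked out after their values were seen, 5 of 11 SMC and cohesin genes and 4 of 25 kinesins were lower, with 0 and 0 higher (1 and 1 at an unadjusted p under 0.05, 0 and 1 with DESeq2).

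Some genes of translation and protein folding were lower by small folds, and single libraries ended many of these calls. In the list of cytosolic ribosomal proteins 1 of 83 tested were higher and 10 lower. These counts were 1 and 19 with the replicate block, 1 and 9 without input 3, and 1 and 61 with library size alone. Their median was -0.59 over the input and -0.23 over control IP. Rps24, a protein of the small subunit, at 80.1, 108 and 87.7 CPM against 174, 480.4 and 184 CPM, had its highest input in input 2, and it went from -1.61 to -0.96 without that library (edgeR adjusted p = 0.0144 and 0.0673). It missed the threshold in 3 of the 6 fits that left out a library (edgeR adjusted p up to 0.0784). Initiation and elongation factors were on both sides: 5 of 62 tested were higher and 7 lower, with a median of -0.34 over the input and -0.22 over control IP. These counts were 6 and 14 with the replicate block, 4 and 5 without input 3, and 3 and 33 with library size alone, and 5 and 2 with the GC correction. The higher ones were Eif2ak3, or PERK, the kinase that lowers initiation under stress of the endoplasmic reticulum (2.74), Eif2c1 as given above, the eIF4E-binding repressor gene Eif4ebp2 (1.88), Eif4h (1.26) and Eif4a1 (1.09), with edgeR adjusted p-values of 0.00812, 0.0027, 0.00134, 0.0215 and 0.0193. Of these Eif2ak3, Eif4h and Eif4a1 missed the threshold in 1, 4 and 4 of the 6 fits that left out a library (edgeR adjusted p up to 0.0518, 0.104 and 0.0761). On the lower side Eif3c, a subunit of the eIF3 initiation complex, was at 99, 135 and 115 CPM against 289, 289 and 258 CPM (-1.26 ± 0.25, edgeR adjusted p = 0.00697), the groups apart in all libraries. Of 39 aminoacyl-tRNA synthetases 5 were lower: Rars, for arginine, was 2.91-fold lower (edgeR adjusted p = 0.00846) and missed the threshold without Roquin IP 1 (0.054). Hsp90aa1, the inducible HSP90, was 2.87-fold lower (edgeR adjusted p = 0.00843), as was its cochaperone gene Stip1 (2.65-fold, edgeR adjusted p = 0.012), and both missed it without Roquin IP 1 (0.0552 and 0.0752). The cytoskeletal genes Lcp1, or L-plastin, the leukocyte actin bundler (2.4-fold), and Tln1, or talin (2.38-fold), were lower too (edgeR adjusted p = 0.0132 and 0.00973, and 0.0818 and 0.0595 without Roquin IP 1). Reads of ribosomal protein genes and of their many pseudogenes cannot be told apart with certainty, so their values are uncertain.

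Immune genes on the lower side included interferon-stimulated ones. Of these, 0 of 39 tested were higher (1 at an unadjusted p under 0.05 and 0 with DESeq2) and 4 lower, the median was -0.61 over the input and -0.10 over control IP, and 34 of the 39 lay under 0. Samd9l, an interferon-induced antiviral factor, was at 24.8, 29.1 and 19.4 CPM in Roquin IP, 20.1, 24.9 and 20.5 CPM in control IP and 95.3, 104 and 51.6 CPM in the input (-1.78 ± 0.33 over the input, edgeR adjusted p = 0.0037). Roquin IP and control IP lay together and both under the input. The dsRNA sensor kinase gene Eif2ak2 (-1.36), Ifit1 (-1.48) and Parp14 (-1.23) were lower with edgeR adjusted p-values of 0.0209, 0.0443 and 0.0279, and lost the call in 3 or more of the 6 fits that left out a library (up to 0.112, 0.202 and 0.141). The inflammatory caspase gene Casp4 (-1.96) and Casp8 (-1.24) were lower in the same way (edgeR adjusted p = 0.0412 and 0.0241, up to 0.203 and 0.114), and Casp4 was at -2.64 without Roquin IP 2. Cflar, which blocks caspase-8, was higher (1.41, edgeR adjusted p = 0.0255), and lost the call in 5 of the 6 fits that left out a library (up to 0.124). Ccdc77, Chm, Itgb3bp, Cast, Emc2, Stap1 and Stk3, of mixed roles, were also among the lowest genes by fold, from -2.03 for Ccdc77 to -1.83 for Stk3. Each missed the threshold in 1 to 6 of the 6 fits that left out a library (edgeR adjusted p up to 0.214). Apart from these genes lay Gm20594, a predicted gene named here after its values were seen and the 1 gene lower by 8-fold or more (0.0105%): it was at 24.8, 63.6 and 16.8 CPM in Roquin IP, 18, 56.4 and 48.3 CPM in control IP and 576, 615 and 458 CPM in the input. Both IPs lay far under the input (-3.96 ± 0.52, edgeR adjusted p = 0.000182, and -4.74 without Roquin IP 2).

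Several groups held no call in either direction in edgeR without the replicate block. These were Toll-like receptors and adaptors (22 genes tested, with 0 above and 1 below at an unadjusted p under 0.05 and 0 and 0 with DESeq2, 0 and 1 with the block), macrophage identity genes (33 tested, 2 and 4 unadjusted, 1 and 2 with DESeq2, 1 and 6 with the block), replication-dependent histones (67 tested, 0 and 3, 0 and 0, 2 and 5 with the block), glycolysis (21 tested, 2 and 2, 0 and 1, 2 and 4 with the block), antigen presentation (18 tested, 1 and 1, 0 and 1, 0 and 2 with the block) and the Notch pathway (13 tested, 0 and 1, 0 and 1, 0 and 0 with the block). Members of the macrophage list ran from -1.31 to 1.33 with a median of -0.21.

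The lower genes were also set apart by base composition. Their coding sequences had a median GC content of 46.1%, against 52.1% for the higher genes and 52.4% for all, and a median length of 2058 bases against 1347 and 1389. By bins of coding GC, the share of lower genes went from 10.6% of genes up to 42% GC down to 0% of the 951 genes over 60% GC, while the share of higher genes stayed between 4.53% and 7.04%. The median log2 fold change over the input went from -0.63 in the lowest bin to 0.40 in the highest. For control IP over the input, which shares the input libraries, the same medians were -0.60 and 0.54, and for Roquin IP over control IP -0.05 and -0.22. Over the 267 genes the median log2 fold changes were -1.27 for Roquin IP over the input, -0.99 for control IP over the input and -0.30 for Roquin IP over control IP. No gene was lower than in control IP in edgeR (0.0%, with 204 at an unadjusted p under 0.05 and 11, or 0.115%, with the replicate block). With a correction for transcript GC in each library, 510 genes were higher (5.33%) and 182 lower (1.9%), 464 and 160 of them among the 521 and the 267. The part of GC content in these calls was not tested further.

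**Figure D4:**
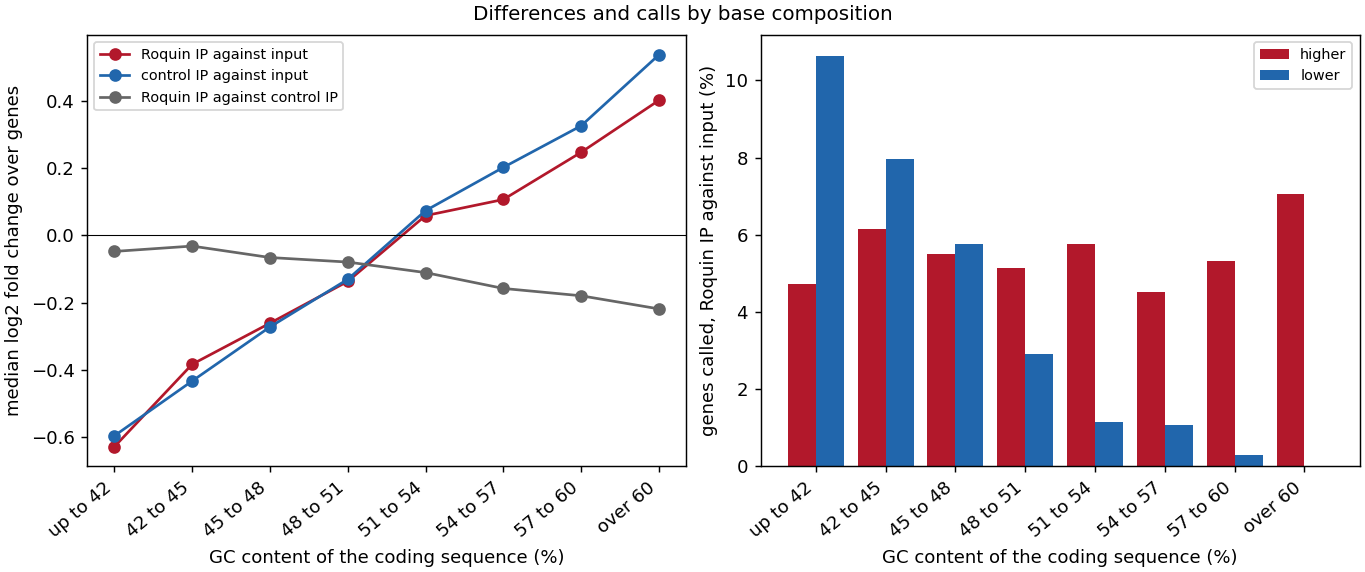
Left, median log2 fold change over genes in 8 bins of coding GC content (%) for the 3 comparisons between groups; right, the share of genes in each bin called higher or lower in Roquin IP over input (%). Both lines over the input climb with GC, from about -0.63 for Roquin IP and -0.60 for control IP, and the lower calls gather in the bins of low GC.

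Input 3 was looked at by itself, since several of the strongest genes were highest there among the inputs. It held 0.516% of its reads in Tnf, against 0.213% and 0.201% in inputs 1 and 2. A fit of the IP libraries alone, which uses no input, called 372 genes higher than control IP (3.81%), and 368 of these were also tested here. Over them the median log2 ratio of input 3 to the mean of the other inputs was 0.03 for all of them, 0.08 for the 231 at 4-fold or more and 0.24 for the 57 at 16-fold or more, against 0.03 for all genes tested (on the log2 scale of CPM plus 1). Over the 57 the same ratios were -0.15 for input 1 and -0.29 for input 2, and input 3 was the highest input for 47.4% of them, against 31.7% of all genes. Over the 368 input 1 stood higher, with a ratio of 0.17, and it was the highest input for 45.4%, against 32.6% for input 3. At 4-fold or more input 1 was at 0.14 and highest for 42%, against 36.4% for input 3. With 1 library against 2 this has no test. Leaving input 3 out of the fit without the replicate block kept 373 of the 521 higher genes and 166 of the 267 lower ones, added 36 and 26, and turned the sign of none. With the replicate block, leaving it out kept 482 of the 521 and 243 of the 267. Without the block, the fold grew on leaving input 3 out in 322 of the 521, with a median change of 0.04 on the log2 scale over the 521. The median of all genes tested in each fit also moved, from -0.01 to 0.03. The fold grew by more than 1 on the log2 scale in 7: Tigd5, Tyro3, Arrdc3, Nfkbid, Socs1, Id1 and Epc1. These genes were named for this change, and Arrdc3 and Tyro3 missed the threshold in 5 and 3 of the 6 fits. Tigd5 had 3 counts and Tyro3 1 count in all inputs together, with pooled ratios of 41 (95% counting interval 13.9 to 199.5) and 40.4 (7.11 to 1608). Epc1, a chromatin gene with a conserved CDE in the authors' deposited table, was at 5.29, 9.1 and 31.7 CPM in the inputs and 160.2, 94 and 176 CPM in Roquin IP, and went from 3.25 to 4.32 without input 3. Among abundant mRNAs, calls that changed without input 3 were those of Cflar (0.094 without it), the helicase gene Eif4a1 (1.09, edgeR adjusted p = 0.0193, then 0.0517 without it), the glutamine transporter gene Slc38a2 (1.20, 0.0452 and 0.119), Eif3a (-1.19, 0.046 and 0.0924), Ccdc50 (1.27, 0.0183 and 0.0693) and Plek, which passed the threshold only without it (-1.20, 0.094 and 0.0334).

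**Figure D5:**
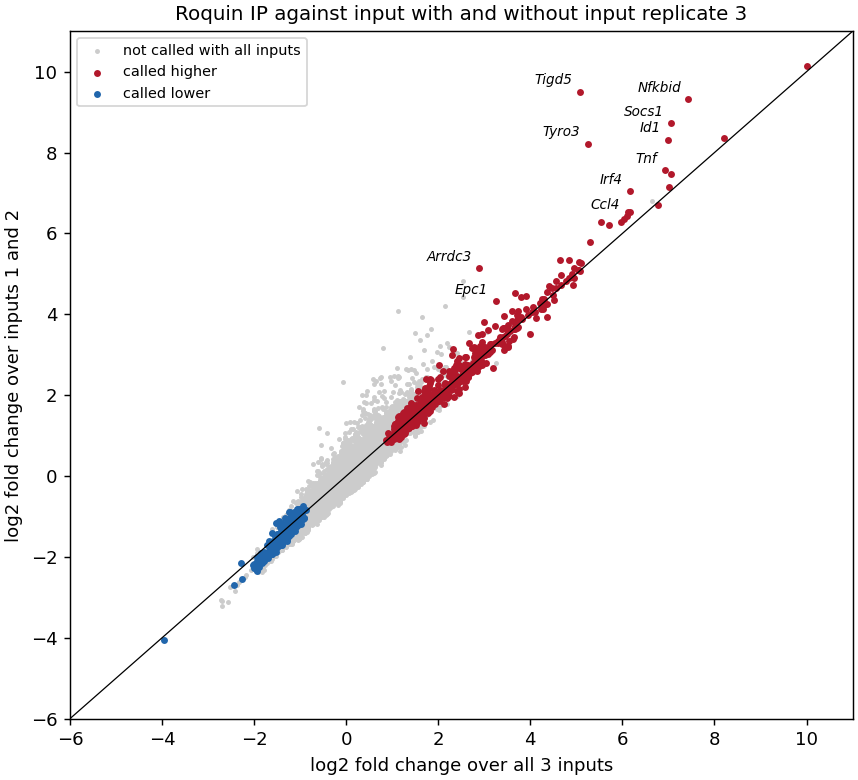
Log2 fold change of Roquin IP over inputs 1 and 2 (vertical axis) against that over all 3 inputs (horizontal axis), 1 point a gene, with the line of equality. Most called genes lie along the line, and Tigd5, Tyro3, Arrdc3, Nfkbid, Socs1, Id1 and Epc1 lie over 1 above it.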

How the data were processed

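RNA of 3 Roquin IP, 3 control IP and 3 input libraries was made with a TruSeq kit, per the labels' protocols, and CASAVA 1.8.2, BWA and DESeq 1.8.3 are named in the submitters' processing notes. No build, annotation or counting tool is given in the sources used here. The authors deposited raw read counts per gene symbol, and these counts were used as deposited. The authors' deposited columns of a ratio (headed log2, though no value is below 0) and a p-value against control IP were not used, and their CDE class was used as text.

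Genes passing filterByExpr (minimum count 10) were tested in edgeR 4.0.16 (R 4.3.3; TMM factors, quasi-likelihood F test, all 9 libraries in 1 fit by group, common biological coefficient of variation 0.35), with Benjamini-Hochberg adjustment over all 9567 genes and a threshold of 0.05. SE is the absolute log2 fold change over the square root of F. The same-numbered Roquin IP and input libraries deviated together (r from 0.255 to 0.471, other numbers -0.266 to -0.0564), so the replicate numbers were taken to pair them. No 2 libraries agreed within sampling noise. With 1799390 to 12975767 reads a library, counting error is largest in the input. Alternatives were DESeq2 1.42.0, other scalings, filters, left-out libraries and, chosen after seeing the data, a GC correction (loess of log2 ratio on transcript GC). The fit by group was also run on simulated counts, with known changes far smaller than the largest folds here and no pairing by replicate. That run does not cover the scaling or the pairing of these data.

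Sequences and lengths came from GENCODE transcripts (GRCm38), matched by symbol for 9498 of the genes tested. Members and gene lists were chosen with earlier results of these data known. Named genes come from the 15 with the largest fold in each direction (called, the groups apart, and leaving out predicted or clone names such as Gm and Rik), up to 4 called members of each list in each direction (or its 2 most abundant members where fewer than 2 were called), 6 fixed references, and the 6 most abundant whose call changed without input 3. Arrdc3, Epc1, Gm20594, Tigd5 and Tyro3 were named after their values were seen.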

Additional observations from a re-analysis of the deposited data

How the results depend on the processing

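The counts of 521 genes higher and 267 lower became 956 and 769 with the replicate block, 937 and 673 with the GC correction and the replicate block, and 507 lower with the replicate block and without input 3. Fits that left out 1 library called 298 to 409 higher and 30 to 192 lower, the fewest lower without Roquin IP 1 and the fewest higher without input 2. Library size alone gave 259 and 2668 and the test against 2-fold 200 and 4. No count filter gave 416 lower and DESeq2 542. The other counts stayed within 1.5 times, and no called gene changed sign under any of these alternatives. The replicate block ended no call of a named gene and brought Gapdh and Plek past the threshold. The GC correction ended the calls of Casp4, E2f1, Eif3a, Ifit1, Itgb3bp, Tax1bp1 and Zc3h12a, and the replicate block without input 3 those of Ifit1, Itch and Itgb3bp. Lars2, uncalled, turned to 0.0241 with the replicate block and without input 3. The median ratio of input 3 to the other inputs, 0.0268, was 0.0831 over genes at 4-fold or more over control IP and 0.236 over those at 16-fold or more, where inputs 1 and 2 stood at -0.148 and -0.29. Input 1 stood above input 3 over genes of any fold (0.165) and of 4-fold or more (0.139). The causes of these moves were not tested. The shallow inputs, where 3 counts stand for up to 1.49 CPM, limit folds of genes with few input reads.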
